A study of Mus musculus with 12 samples.

Results

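The 9 genes described here, out of 23362 in the count tables, belong to the cytokine pathway that runs through the transcription factor STAT5: its 2 genes Stat5a and Stat5b, the feedback inhibitors Cish, Socs1, Socs2 and Socs3, the survival kinases Pim1 and Pim2, and the cytokine Osm. They were chosen by symbol because Cish was far higher in GATA2-GMP than in GMP. Levels in the 2 kinds of cell are therefore given as a description, without a test. Tests are given for the genotype, which is not part of that reason. Earlier results of these data were known at the choice, so its independence from the genotype values cannot be shown. GMP are granulocyte-macrophage progenitors, bone marrow cells from which granulocytes and monocytes descend. GATA2-GMP are GMP that were purified, transduced with GATA2, sorted again and kept in culture for 48 hours. The 12 libraries of polyadenylated RNA came from C57BL/6 mice and formed 4 groups of 3, GATA2-GMP from Xbp1-deficient mice (KO), GATA2-GMP from wild type mice (WT), GMP KO and GMP WT. The question of the series is how loss of XBP1, which activates genes of the unfolded protein response, alters transcripts at these steps of eosinophil development. Libraries of GMP, sorted directly into Trizol, were made with TruSeq alone and those of GATA2-GMP with SMARTer Ultra Low Input followed by TruSeq, so stage, transduction, culture and kit cannot be told apart. The labels give neither the Xbp1 allele, the animals behind each replicate, their age, nor the cytokines in the medium; p-values measure the spread between these libraries, which may be technical.

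Interleukin 5, interleukin 3 and GM-CSF, the growth factors of eosinophils, bind receptors that share a common beta chain, and the kinase JAK2 attached to that chain phosphorylates STAT5A and STAT5B. Phosphorylated STAT5 enters the nucleus and switches on, among other genes, inhibitors of its own pathway. CIS, the protein of Cish, occupies receptor sites that STAT5 would bind, SOCS1 and SOCS3 block the JAK kinases, and SOCS2 damps growth hormone signalling. PIM kinases are serine/threonine kinases that protect blood cells from death and, having no separate regulatory partner, are controlled mainly through their amount. Oncostatin M, the protein of Osm, is an interleukin 6 relative whose gene is a STAT5 target.

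STAT5 binds the palindrome TTCNNNGAA, and the promoter sequences are shown because the feedback genes differ in it. RefSeq windows (build GRCm38.p6) of 300 bases, from 250 before to 50 after a transcription start, were found for 7 of the 9 genes, 10 windows in all, with no window used for Socs2 or Osm. The palindrome, read the same on both strands, lay in 2 of the 10 windows, those of Cish and Socs3, against 8.3% of all 32851 windows. Cish had 2 matches, TTCCTGGAA at +1 and TTCTTGGAA at +12, while 0.457% of all windows had 2 or more. Socs3 had 1 match, TTCTTAGAA at -154. The Cish window also held 1 match to TGACGTG, the core of the XBP1 site, on the opposite strand at -99 (CACGTCA), as did 2.01% of windows on either strand. The same end letters set 4 bases apart, the spacing of the STAT6 site, were in no window of the 7 genes and in 6.95% of all. The Cish window, chr9:107296409-107296688 on the plus strand, and the Socs3 window, chr11:117969337-117969616 on the minus strand, are printed up to 30 bases after the start, with the matches in capitals.
Cish: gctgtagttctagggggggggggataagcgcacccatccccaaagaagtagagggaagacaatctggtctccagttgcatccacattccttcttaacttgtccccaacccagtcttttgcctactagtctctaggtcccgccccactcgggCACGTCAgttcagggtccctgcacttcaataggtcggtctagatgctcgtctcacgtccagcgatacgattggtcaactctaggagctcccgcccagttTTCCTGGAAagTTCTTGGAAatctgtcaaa
Socs3: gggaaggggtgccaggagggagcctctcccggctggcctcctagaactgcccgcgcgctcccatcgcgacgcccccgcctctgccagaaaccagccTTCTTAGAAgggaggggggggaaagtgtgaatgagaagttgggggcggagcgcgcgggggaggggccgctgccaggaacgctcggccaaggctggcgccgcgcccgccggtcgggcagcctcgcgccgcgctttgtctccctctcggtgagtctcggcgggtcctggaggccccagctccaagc
A match of letters is a description of the sequence and shows no binding.

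In the mm9 build that the submitters name, with the GENCODE vM1 annotation, Cish lies on chromosome 9 from 107198357 to 107205115 on the plus strand. Socs1 lies on chromosome 16 from 10783901 to 10785629 (minus), Socs2 on chromosome 10 from 94847996 to 94879814 (minus) and Socs3 on chromosome 11 from 117827393 to 117831361 (minus). Pim1 lies on chromosome 17 from 29627757 to 29632390 and Pim2 on chromosome X from 7455388 to 7460558, both on the plus strand. Osm is on chromosome 11 from 4136423 to 4141029 (plus). Stat5b (100642045 to 100712038, minus) and Stat5a (100720665 to 100746483, plus) are neighbours on chromosome 11 that point away from each other; they are close paralogs, so reads shared between them may be split or lost, in a way not stated in the sources used here.

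Library totals ran from 8219366 to 33640911 counts. Xbp1, the targeted gene, was lower in every KO library than in every WT library of its stage, at 99.9 to 128 CPM (counts scaled to library size) in GATA2-GMP KO and 197 to 381 CPM in GATA2-GMP WT, and at 55.9 to 89.8 CPM in GMP KO and 131 to 153 CPM in GMP WT, although edgeR's adjusted p was 0.0959 in GATA2-GMP and 0.0919 in GMP. Gata2 averaged 267 CPM in GATA2-GMP KO, 292 CPM in GATA2-GMP WT, 27.4 CPM in GMP KO and 28.7 CPM in GMP WT; transgene and endogenous reads are not told apart. Summed over 10 genes, GMP markers reached 4311 to 5385 CPM in GATA2-GMP KO, 5634 to 7372 CPM in GATA2-GMP WT, 23260 to 27650 CPM in GMP KO and 26990 to 29540 CPM in GMP WT. Summed over 11 genes, eosinophil markers reached 56350 to 68380 CPM in GATA2-GMP KO, 136200 to 207500 CPM in GATA2-GMP WT, 381 to 715 CPM in GMP KO and 143 to 336 CPM in GMP WT, with none at 0 in any group; KO was lower in GATA2-GMP and higher in GMP, without overlap. Neutrophil markers, 10 genes, summed to 37450 to 62050 CPM in GATA2-GMP KO, 40890 to 72740 CPM in GATA2-GMP WT, 38.4 to 141 CPM in GMP KO and 16.2 to 38.7 CPM in GMP WT, where Retnlg was at 0. Mast cell and basophil markers, 14 genes, summed to 8317 to 13880 CPM in GATA2-GMP KO and 4953 to 14000 CPM in GATA2-GMP WT. In GMP they summed to 291 to 343 CPM in KO and 329.5 to 362 CPM in WT. Monocyte, macrophage and dendritic cell markers, 15 genes, summed to 3240 to 5999 CPM in GATA2-GMP KO and 4167 to 8525 CPM in GATA2-GMP WT. In GMP these reached 1238 to 1680 CPM in KO and 1283 to 1492 CPM in WT. The GATA2-GMP libraries thus held transcripts of more than 1 mature lineage, and fewer cells of a type cannot be told apart from less RNA per cell.

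**Figure D1:**
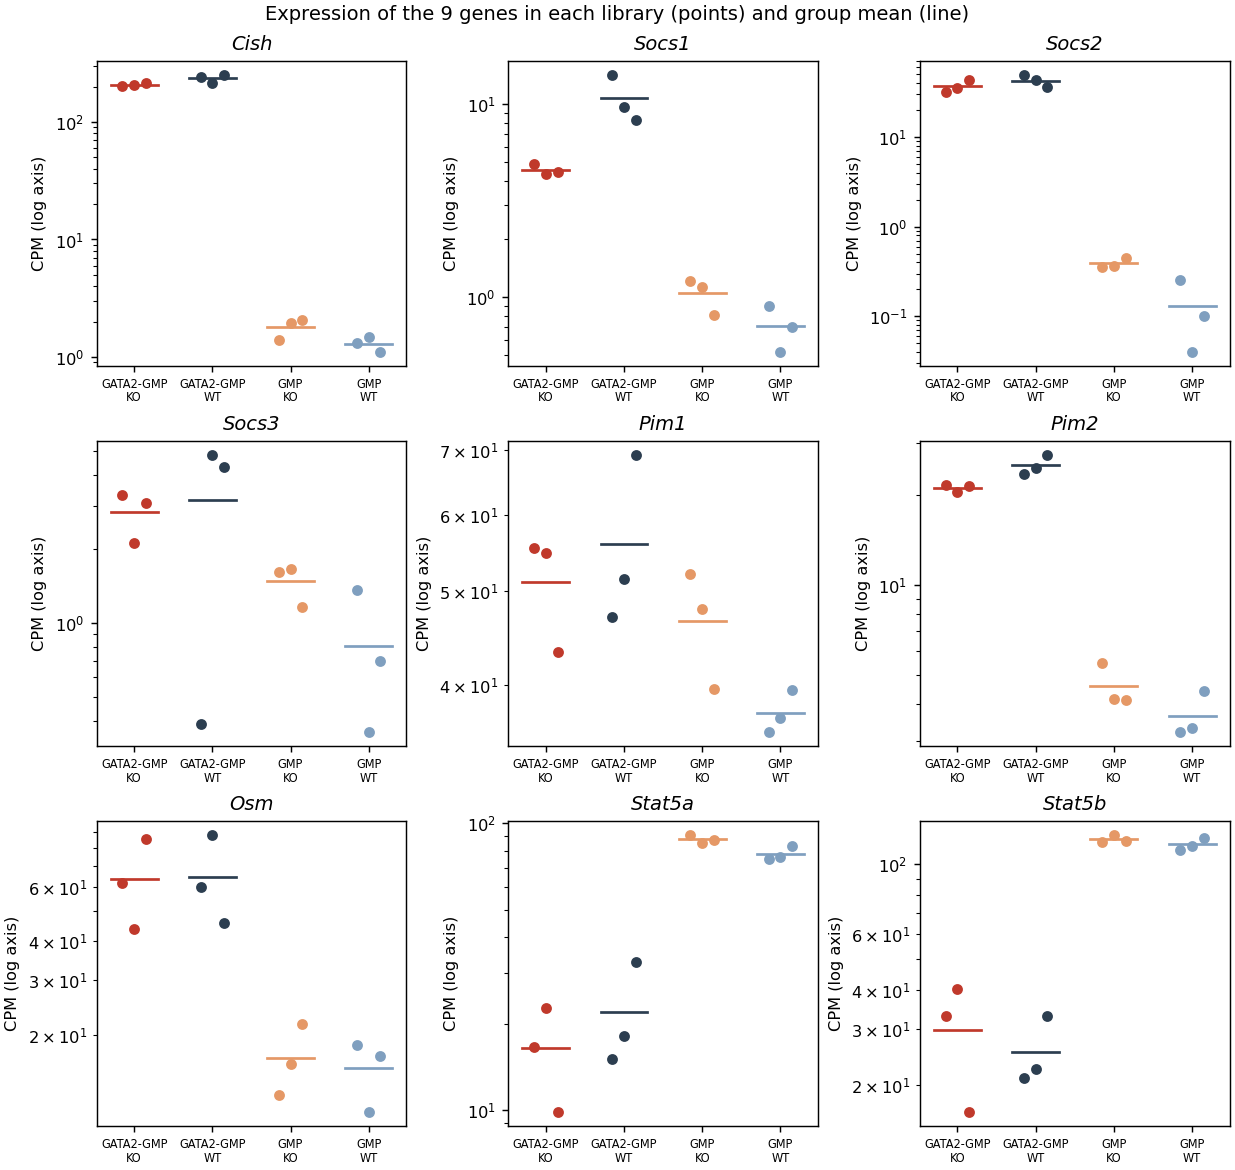
Level of each of the 9 genes in CPM on a log axis, with 1 point per library and a line at the group mean, for GATA2-GMP KO, GATA2-GMP WT, GMP KO and GMP WT. Cish and Socs2 stand far higher in the 6 GATA2-GMP libraries, Stat5a and Stat5b stand higher in the 6 GMP libraries, and the Pim1 levels of the stages overlap.

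Cish was close to silent in GMP and among the more strongly raised genes of GATA2-GMP. It measured 202, 204 and 213 CPM in GATA2-GMP KO, 242, 212 and 251 CPM in GATA2-GMP WT, 1.39, 1.95 and 2.06 CPM in GMP KO, and 1.32, 1.48 and 1.10 CPM in GMP WT. The stages were separated by 2 orders of magnitude, and in both genotypes the 3 libraries of a stage lay close together. The difference, GATA2-GMP minus GMP, was 6.87 on the log2 scale in KO and 7.49 in WT, a fold of 117 in KO and 180 in WT. Of all genes tested, 1.96% in KO and 1.45% in WT had a difference as high or higher. In GMP the Cish values rest on 147 counts over the 3 KO libraries and 90 counts over the 3 WT libraries.

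Socs2 followed Cish from an even lower start. It measured 31.9, 35.4 and 43.5 CPM in GATA2-GMP KO, 49.1, 42.6 and 35.8 CPM in GATA2-GMP WT, 0.357, 0.368 and 0.448 CPM in GMP KO, and 0.256, 0.0399 and 0.09997 CPM in GMP WT. The GMP levels stand for 10, 16 and 5 counts in KO and 6, 1 and 2 counts in WT, so that the log2 difference between stages, 6.60 in KO and 8.27 in WT, depends on a handful of reads in the GMP libraries. In the WT libraries that difference was 9.16 without GMP WT replicate 1, the GMP WT library with 6 of the 9 Socs2 counts.

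Socs1 and Socs3, the inhibitors that act on the JAK kinases, differed less between the stages. Socs1 measured 4.90, 4.35 and 4.43 CPM in GATA2-GMP KO, 14.2, 9.67 and 8.28 CPM in GATA2-GMP WT, 1.22, 1.13 and 0.806 CPM in GMP KO, and 0.897, 0.519 and 0.700 CPM in GMP WT. The genotypes of Socs1 overlapped in GMP and did not overlap in GATA2-GMP, where KO was the lower, as for 12.2% of all genes. Every GATA2-GMP library was above every GMP library. The stages did not overlap for 82.4% of all genes in KO and 77.2% in WT. In GMP the Socs1 levels stand for 34, 49 and 9 counts in KO and 21, 13 and 14 counts in WT. The log2 difference between stages was 2.08 in KO and 3.92 in WT. Socs3 measured 3.33, 2.11 and 3.08 CPM in GATA2-GMP KO, 0.387, 4.83 and 4.31 CPM in GATA2-GMP WT, 1.61, 1.66 and 1.17 CPM in GMP KO, and 1.37, 0.359 and 0.700 CPM in GMP WT. One library stood apart, GATA2-GMP WT replicate 1, with 5 Socs3 counts against 77 and 74 in the other GATA2-GMP WT libraries, and its level lay within the range of GMP WT. In GMP the Socs3 levels stand for 45, 72 and 13 counts in KO and 32, 9 and 14 counts in WT. The log2 difference of Socs3 between stages was 0.92 in KO and 1.99 in WT.

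Of the survival kinases, Pim2 was higher in GATA2-GMP and Pim1 was closer in level at the 2 stages. Pim2 measured 21.6, 20.5 and 21.6 CPM in GATA2-GMP KO, 23.6, 24.8 and 27.3 CPM in GATA2-GMP WT, 5.47, 4.14 and 4.12 CPM in GMP KO, and 3.20, 3.31 and 4.40 CPM in GMP WT. The stages did not overlap, as for 82.4% of all genes in KO and 77.2% in WT, and the log2 difference was 2.22 in KO and 2.80 in WT. Pim1 measured 55.4, 54.8 and 43.3 CPM in GATA2-GMP KO, 47.0, 51.5 and 69.1 CPM in GATA2-GMP WT, 52.1, 48.0 and 39.6 CPM in GMP KO, and 35.8, 37.0 and 39.5 CPM in GMP WT. Its stages overlapped in KO, and the log2 difference of 0.14 in KO and 0.59 in WT became -0.52 in KO and -0.24 in WT when libraries were scaled by their totals alone, a scaling that moved the median of all genes to -0.73 in KO and -0.93 in WT.

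Osm was higher in every GATA2-GMP library than in any GMP library, with wide scatter. The stages did not overlap for 82.4% of all genes in KO and 77.2% in WT. It measured 62.0, 43.8 and 85.6 CPM in GATA2-GMP KO, 60.1, 88.1 and 45.8 CPM in GATA2-GMP WT, 12.8, 16.1 and 21.6 CPM in GMP KO, and 18.6, 11.3 and 17.1 CPM in GMP WT. The genotypes overlapped at both stages, and the log2 difference between stages was 1.95 in KO and 2.05 in WT.

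The genes of the transcription factor itself ran the other way. Stat5a measured 16.6, 22.8 and 9.84 CPM in GATA2-GMP KO, 15.1, 18.2 and 32.8 CPM in GATA2-GMP WT, 90.9, 85.5 and 87.4 CPM in GMP KO, and 75.2, 76.2 and 83.5 CPM in GMP WT. Stat5b measured 33.0, 40.3 and 16.4 CPM in GATA2-GMP KO, 21.0, 22.4 and 33.1 CPM in GATA2-GMP WT, 118, 124 and 119 CPM in GMP KO, and 111, 115 and 121 CPM in GMP WT. All 6 GATA2-GMP libraries lay below all 6 GMP libraries for both genes. Over all genes the stages did not overlap for 82.4% in KO and 77.2% in WT. For Stat5a and Stat5b alike, the lowest GATA2-GMP KO library was replicate 3 and the highest GATA2-GMP WT library was replicate 3. The log2 difference between stages was -2.41 in KO and -1.82 in WT for Stat5a, and -1.995 in KO and -2.17 in WT for Stat5b. With these genes lower, 6 of the 9 were past edgeR's threshold on the high side and 2 on the low side in each genotype, where 78.6% of all genes tested in KO (38.6% high, 40.0% low) and 70.5% in WT (34.1% high, 36.4% low) were past it; as the members were chosen on this contrast, nothing is read from the count.

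**Figure D2:**
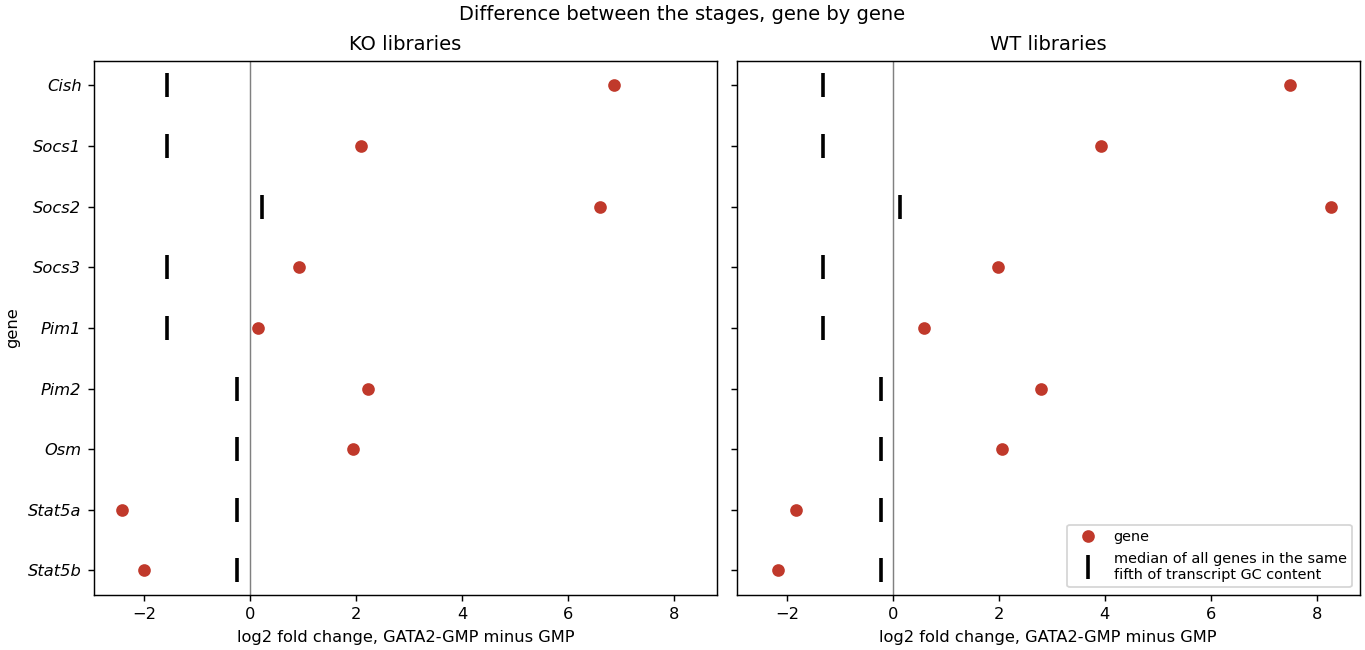
Difference between the stages (log2 fold change, GATA2-GMP minus GMP) for each gene, in KO libraries on the left and WT libraries on the right; red points are the genes and black ticks the median of all genes in the same of 5 bins by transcript GC content. Cish, at 6.87 in KO and 7.49 in WT, and Socs2, at 6.60 in KO and 8.27 in WT, lie far to the right of their ticks, and Stat5a and Stat5b lie to the left of theirs.

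The difference between stages moved with base composition over all genes. Genes were put into 5 bins of equal size by GC content. In the bin richest in GC, which holds Cish, Socs1, Socs3 and Pim1, the median log2 difference was -1.56 in KO and -1.31 in WT, and in the poorest bin it was 0.55 in KO and 0.38 in WT. Cish, Socs1, Socs3 and Pim1 were above that median in both genotypes. Stat5a and Stat5b, in the next richest bin with medians of -0.26 in KO and -0.23 in WT, were below theirs. By length of the longest transcript the medians ran from 1.06 in KO and 1.05 in WT for the shortest of 5 bins to -0.71 in KO and -0.73 in WT for the longest bin, which holds Stat5b. The part of base composition and length in these values was not tested.

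Divided by the length of the longest annotated transcript, so that genes can be compared, Cish stood first in GATA2-GMP and seventh in GMP. In GATA2-GMP it averaged 72.4 ± 2.07 CPM per kb in KO and 82.6 ± 7.12 CPM per kb in WT (SD, n = 3 each), above Osm (28.1 in KO, 28.5 in WT) and Pim1 (25.9 in KO, 28.3 in WT), which overlapped each other. Pim2 (10.4 in KO, 12.3 in WT) and Socs2 (8.70 in KO, 10.0 in WT) came next and overlapped, then Socs1, Stat5a and Stat5b at 3.74 to 8.77 CPM per kb in overlapping steps, with Socs3 last at 1.11 in KO and 1.25 in WT. In GMP the top of the order was shared by Stat5b (23.0 CPM per kb in KO, 22.2 in WT), Stat5a (22.6 in KO, 20.2 in WT) and Pim1 (23.6 in KO, 19.0 in WT), each overlapping the next. Osm followed at 7.40 CPM per kb in KO and 6.89 in WT, then Pim2 at 2.24 in KO and 1.78 in WT. Socs1, Cish and Socs3 were between 0.317 and 0.860 CPM per kb and overlapped in steps, and Socs2 was last at 0.0921 in KO and 0.0311 in WT. The order within GATA2-GMP and GMP depends on the transcript taken: with the shortest one Stat5a came first in GMP, and Cish stayed first in GATA2-GMP.

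Whether Xbp1 deficiency altered these genes was asked at each stage. In GATA2-GMP, 0 of the 9 genes passed an adjusted p of 0.05 in edgeR's quasi-likelihood test, where 0.376% of 11699 genes did; at an unadjusted p of 0.05 it was 1, on the low side, where 8.31% of all genes were lower and 6.59% higher, and DESeq2 called 1, where it called 4.86% of all genes. That gene was Socs1, which averaged 4.56 ± 0.296 CPM in GATA2-GMP KO and 10.7 ± 3.08 CPM in GATA2-GMP WT (SD, n = 3 each). The log2 difference, KO minus WT, was -1.22 with a standard error (SE) of 0.31 and an adjusted p of 0.129 in edgeR. All 3 KO libraries lay below all 3 WT libraries, as they did for 12.2% of all genes. Its adjusted p was 0.0165 with DESeq2 (log2 difference -1.21) and 0.0436 without GATA2-GMP WT replicate 3 (-1.38), and over all 11 alternatives it ran from 0.0165 to 0.461. Leaving out that library also gave the most calls over all genes of any single library. The summed eosinophil markers were also lower, 56350 to 68380 CPM in KO and 136200 to 207500 CPM in WT, as were the summed GMP markers, 4311 to 5385 CPM in KO and 5634 to 7372 CPM in WT, and their part in the Socs1 result was not tested.

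Cish itself was little apart between genotypes in GATA2-GMP, at 206 ± 5.90 CPM in KO and 235 ± 20.3 CPM in WT (SD, n = 3 each). The log2 difference was -0.19, with a 95% interval from -0.63 to 0.26 and an adjusted p of 0.717, and the genotypes overlapped by 1 library. Socs2 differed by -0.20, with an interval from -0.72 to 0.32. Pim2 was lower in each KO library than in any WT library, as were 12.2% of all genes. Its log2 difference of -0.25 (interval -0.72 to 0.23) did not pass the test. Pim1 differed by -0.12, Osm by -0.02, Socs3 by -0.17, Stat5a by -0.42 and Stat5b by 0.23 on the log2 scale, with adjusted p from 0.642 for Pim2 to 0.986 for Osm. The intervals were wide for Socs3, from -1.75 to 1.42, and for Stat5a, from -1.28 to 0.44.

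In GMP, without the pairing of replicate numbers, 0 of the 8 genes tested passed the threshold in edgeR, where 3.17% of 12002 genes did. With the pairing as a block 1 passed, Pim1, as given below. At an unadjusted p of 0.05 without the block it was 3, all higher in KO, where 6.78% of all genes were higher and 7.69% lower. DESeq2 called 1, where it called 4.06% of all genes. The intervals given for GMP are also from the fit without the block. Socs2 had too few reads to pass the filter on low counts and was not among the 8. Pim1 came nearest, with 46.6 ± 6.37 CPM in GMP KO and 37.4 ± 1.92 CPM in GMP WT (SD, n = 3 each). Its log2 difference was 0.31 with an SE of 0.0836 and an adjusted p of 0.0744. All KO libraries lay above all WT libraries, as for 9.48% of genes, although the lowest KO value, 39.6 CPM, was next to the highest WT value, 39.5 CPM. With the replicate number as a block, which correlations between libraries and not the labels were taken to pair in GMP, more of all genes passed. The adjusted p of Pim1 was then 0.0288 at a difference of 0.31. It was 0.0295 when libraries were scaled by totals (0.35), 0.0223 without the filter (0.31), 0.0415 with DESeq2 (0.31) and 0.0409 without GMP KO replicate 3 (0.38), and over the 11 alternatives it ran from 0.0223 to 0.261.

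The other genes of the pathway were close between genotypes in GMP or too sparse to tell. Cish averaged 1.80 ± 0.358 CPM in KO and 1.30 ± 0.189 CPM in WT (SD, n = 3 each), a log2 difference of 0.42 with an interval from -0.11 to 0.95. Stat5a differed by 0.15 (interval 0.0098 to 0.295, adjusted p 0.313) and Stat5b by 0.04 (interval -0.09 to 0.16). Socs1 differed by 0.61, Socs3 by 0.90, Pim2 by 0.33 and Osm by 0.05, with adjusted p from 0.297 for Socs3 to 0.959 for Osm. Socs2, tested without the filter, differed by 1.47 with an SE of 0.593 and an adjusted p of 0.269, on 31 counts in KO and 9 counts in WT.

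**Figure D3:**
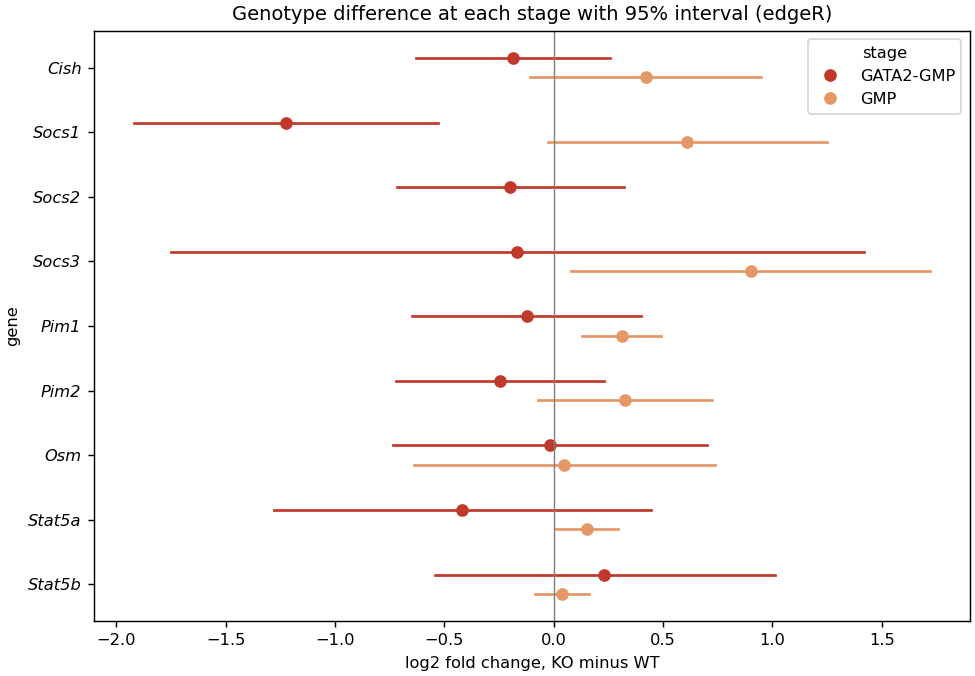
Difference between genotypes (log2 fold change, KO minus WT) with its 95% interval from edgeR for each gene, in GATA2-GMP (red, upper) and in GMP (orange, lower); Socs2 was not tested in GMP. Socs1 lies at -1.22 in GATA2-GMP and 0.61 in GMP, and of the 8 genes tested at both stages Stat5b alone has its points on the same side of 0; on total-count scaling Osm and Pim1 join it.

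The fitted genotype differences mostly had opposite signs at the 2 stages, though no gene passed the test of that. Genes measured in the same libraries are not independent, so the signs are a description. In GATA2-GMP the 95% interval left out 0 for Socs1 (-1.92 to -0.53) and for no other of the 9. Over the 11 alternatives there, Osm changed sign in 6, Socs3 in 4, Pim1 in 2 and Stat5b in 1. In GATA2-GMP 8 of the 9 genes had a log2 difference below 0 (median -0.19, against 50.4% of all genes and a median of -0.0049), and in GMP 8 of the 8 were above 0 (median 0.32, against 51.8% of all genes and a median of 0.0058). In GMP the eosinophil marker sum was also higher in KO, at 381 to 715 CPM against 143 to 336 CPM in WT. Neutrophil markers reached 38.4 to 141 CPM in KO and 16.2 to 38.7 CPM in WT, which overlap. The top of both KO ranges was KO replicate 1, with the other KO libraries at 404 and 381 CPM, and at 53.8 and 38.4 CPM. GMP markers ran lower in KO, at 23260 to 27650 CPM against 26990 to 29540 CPM in WT, with overlap. The median log2 difference in GMP was 1.95 over the 8 tested neutrophil markers, of which 1 rose, and 0.20 over the 9 tested eosinophil markers, of which 0 passed in edgeR; the part of these cells in the members' values was not tested. When libraries were scaled by totals, which put the median of all genes in GATA2-GMP at 0.18, Osm (0.15) and Pim1 (0.06) were above 0 there. The interaction term over the 12 libraries, fitted without the replicate block, is the KO minus WT difference in GATA2-GMP less that in GMP. It was below 0 for 8 of 9 genes with a median of -0.59, against 51.0% of all genes and a median of -0.0129. These signs largely follow from those at the 2 stages and are no separate result. Socs2, left out by the filter in GMP, entered this fit through its GATA2-GMP counts. Its GMP values rest on 31 counts in KO and 9 counts in WT, so nothing is read from its interaction or its place in these counts. In edgeR 0 of the 9 passed, where 0.0859% of 12803 genes did. At an unadjusted p under 0.05 there were 4, Socs2 among them, all on the low side, where 8.95% of all genes were low and 5.96% high. DESeq2 called 1, where it called 6.41% of all genes. That gene was Socs1, at -1.84 with an SE of 0.428 and an adjusted p of 0.0898 in edgeR. Its adjusted p was 0.0031 in DESeq2 (-1.88) and 0.0175 without GATA2-GMP WT replicate 3 (-1.997), and ran from 0.0031 to 0.297 over 17 alternatives. Here too, leaving out that library gave the most calls over all genes of any single library. The interaction was -1.68 for Socs2 (adjusted p 0.163), -0.63 for Cish (0.24) and -0.59 for Pim2 (0.317), and these genes, like Socs1 and Socs3, are low in GMP. It was -1.07 for Socs3 (interval -3.07 to 0.93), -0.59 for Stat5a (-1.49 to 0.30), -0.44 for Pim1 (-0.98 to 0.09), -0.11 for Osm (-1.04 to 0.82) and 0.18 for Stat5b (-0.63 to 0.98).

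**Figure D4:**
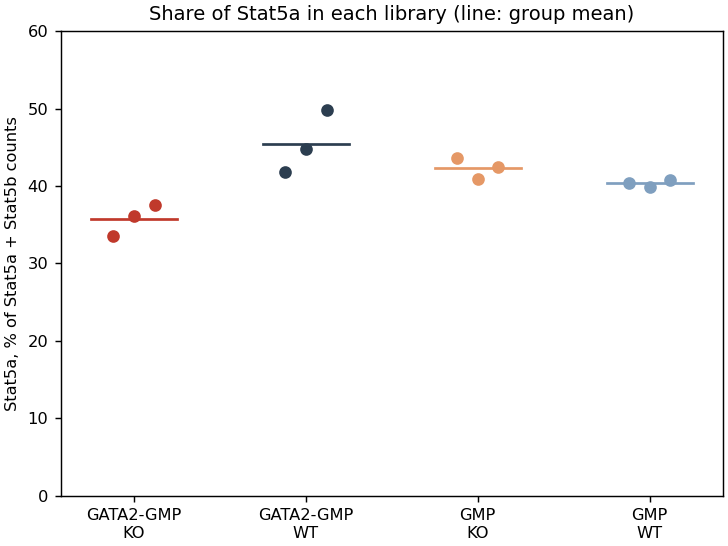
Counts of Stat5a as a percentage of the counts of Stat5a and Stat5b together, with 1 point per library and a line at the group mean, for GATA2-GMP KO, GATA2-GMP WT, GMP KO and GMP WT. GATA2-GMP KO libraries lie between 33.5 and 37.5%, GATA2-GMP WT libraries between 41.8 and 49.8%, and GMP libraries between 39.9 and 43.6%.

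A ratio within a library does not depend on how libraries are scaled, and the balance of the STAT5 genes was looked at for that reason after their values were seen. Stat5a made up 33.5, 36.1 and 37.5% of the Stat5a and Stat5b counts in GATA2-GMP KO and 41.8, 44.8 and 49.8% in GATA2-GMP WT. In GMP it was 43.6, 40.9 and 42.4% in KO and 40.4, 39.9 and 40.8% in WT. The genotypes did not overlap at either stage, and KO was below WT in GATA2-GMP and above WT in GMP. In GMP this rests on 40.9% in KO replicate 2 (95% Wilson interval 39.9 to 41.9%) against 40.8% in WT replicate 3 (39.3 to 42.3%), a gap far inside counting error. In GATA2-GMP the nearest libraries were KO replicate 3, at 37.5% (32.6 to 42.7%), and WT replicate 1, at 41.8% (37.5 to 46.4%), whose intervals also overlap. For levels of single genes, groups did not overlap with KO lower for 12.2% of genes in GATA2-GMP and with KO higher for 9.48% in GMP. The shares rest on 349 to 1131 counts per library in GATA2-GMP and 2302 to 9101 in GMP, the intervals cover counting error only, and no test is given.

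Upstream of STAT5, the list of 19 receptors that signal through it had 12 tested genes in each genotype comparison, of which 0 passed in edgeR in either. At an unadjusted p of 0.05, 4 were higher and 2 lower in GATA2-GMP KO, and 4 higher and 3 lower in GMP KO, to be read, as in the lists that follow, beside the 6.59% higher and 8.31% lower of all genes in GATA2-GMP and the 6.78% and 7.69% in GMP. DESeq2 called 2 higher in GATA2-GMP KO, Kit and Il7r, and 1 higher in GMP KO, Il5ra. Its calls here and in the lists that follow stand beside 4.86% of all genes in GATA2-GMP, 4.06% in GMP and 6.41% in the interaction. These and other genes given here by DESeq2 were named after their values were seen. Between the stages, 7 of 13 tested receptors rose and 6 fell in KO, and 5 of 13 rose and 7 fell in WT, where 38.6% of all genes rose and 40.0% fell in KO, and 34.1% rose and 36.4% fell in WT. Csf2rb2, the interleukin 3 receptor beta chain particular to mice, averaged 964 ± 94.7 CPM in GATA2-GMP KO, 775 ± 179 CPM in GATA2-GMP WT, 8.99 ± 0.568 CPM in GMP KO and 7.27 ± 0.477 CPM in GMP WT (SD, n = 3 each). It rose by 6.75 on the log2 scale in each genotype (adjusted p 8.64e-08 in KO and 2.15e-06 in WT). Csf2rb, the gene of the common beta chain, rose by 4.27 in KO and 4.13 in WT, and Il5ra by 3.715 in KO and 5.98 in WT. Csf2ra changed by -2.01 in KO and -1.37 in WT, and Il3ra by -5.20 in KO and -3.28 in WT. Flt3, a receptor of early progenitors, fell, with log2 changes of -5.34 in KO and -7.31 in WT. In GATA2-GMP it averaged 0.315 CPM in KO and 0.110 CPM in WT, so the size of its fall rests on few reads. Il7r, the interleukin 7 receptor, had no read in GMP WT and 438 counts over GATA2-GMP WT, at least 217-fold higher when 3 counts over GMP WT are taken as the floor; it averaged 25.2 CPM in GATA2-GMP KO and 0.0119 CPM in GMP KO. Il2ra, the interleukin 2 receptor alpha chain and itself a STAT5 target, had no read in GMP KO and 476 counts over GATA2-GMP KO, at least 285-fold higher by the same floor.

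The 21 JAK kinases, adaptors and phosphatases held no called gene in the genotype comparison of either stage in edgeR or DESeq2, while in the interaction DESeq2 called 3 lower, Jak1, Ptpn1 and Ptpn11, and edgeR 0. At an unadjusted p of 0.05, 1 of 20 was higher and 2 lower in GATA2-GMP KO, and 3 of 21 were higher and 0 lower in GMP KO. Between the stages 9 rose and 12 fell in KO, and 8 rose and 10 fell in WT, out of 21. Over all genes 38.6% rose and 40.0% fell in KO, and 34.1% rose and 36.4% fell in WT. Jak3, the kinase of the common gamma chain receptors, averaged 0.682 ± 0.778 CPM in GATA2-GMP KO, 0.480 ± 0.367 CPM in GATA2-GMP WT, 70.6 ± 19.5 CPM in GMP KO and 62.8 ± 3.25 CPM in GMP WT (SD, n = 3 each), and fell, with log2 changes of -6.59 in KO and -6.96 in WT. The adaptor gene Sh2b2 changed by -4.26 in KO and -3.32 in WT. Sh2b1, an adaptor that binds JAK2, changed by -3.45 in KO and -2.98 in WT, and Ptpn11, the phosphatase SHP2, by -3.63 in KO and -2.81 in WT. Among the genes of this list that rose were Jak2, by 0.71 in KO and 0.97 in WT, and Ptpn2, by 2.54 in KO and 2.53 in WT.

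The 10 other SOCS, PIM and STAT genes had 0 calls by genotype in edgeR; at an unadjusted p of 0.05, 1 was higher and 1 lower in GATA2-GMP KO and none in GMP KO, and DESeq2 called 1, Stat4, higher in GATA2-GMP KO and 0 in GMP. Between the stages 3 rose and 5 fell in KO, and 2 rose and 4 fell in WT. The shares of all genes were 38.6% up and 40.0% down in KO, and 34.1% up and 36.4% down in WT. The relatives with the largest changes ran opposite to Cish and Socs2. The log2 change was -2.23 in KO and -2.35 in WT for Socs7, -2.02 in KO and -1.25 in WT for Socs4, and -2.08 in KO and -1.35 in WT for Pim3, the remaining PIM kinase.

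Of 16 other genes known to respond to STAT5, 8 rose and 6 fell between the stages in KO (16 tested), and 8 rose and 6 fell in WT (15 tested), where 38.6% of all genes rose and 40.0% fell in KO, and 34.1% rose and 36.4% fell in WT. The median log2 difference of the list was 0.58 in KO and 0.65 in WT, against -0.0545 in KO and -0.0925 in WT over all genes. Ikzf4, a transcription factor of the Ikaros family, rose by 7.04 in KO and 6.99 in WT. It averaged 0.0587 CPM in GMP KO and 0.104 CPM in GMP WT, so the size of its rise rests on few reads. Id1, a helix-loop-helix inhibitor, rose by 3.96 in KO and 5.03 in WT, and Cdkn1a, the cell cycle inhibitor p21, by 3.38 in KO and 3.64 in WT. Bcl6, a repressor that competes with STAT5, fell, with log2 changes of -4.22 in KO and -3.41 in WT, to 0.337 CPM in GATA2-GMP KO and 0.498 CPM in GATA2-GMP WT. By genotype 1 of 14 was called in GMP in edgeR, Id1, at 5.504 ± 0.661 CPM in GMP KO and 2.74 ± 0.261 CPM in GMP WT (SD, n = 3 each; log2 difference 1.003, SE 0.153, adjusted p 0.00225). In GATA2-GMP 0 of 15 was called in edgeR, with 5 higher and 3 lower in KO at an unadjusted p of 0.05, and DESeq2 called 2 higher, Bcl2l1, which opposes cell death, and Myc. The 10 genes whose proteins PIM kinases phosphorylate had 0 calls by genotype in edgeR and DESeq2, and 0 at an unadjusted p of 0.05, at either stage; between the stages 5 rose and 4 fell in KO, and 4 rose and 4 fell in WT.

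Among 10 relatives and receptors of oncostatin M and interleukin 6, the same counts held in both genotypes, with 2 of 7 tested rising and 5 falling between the stages. Of all genes, 38.6% rose and 40.0% fell in KO, and 34.1% rose and 36.4% fell in WT. Il6, the gene of interleukin 6, averaged 416 ± 139.9 CPM in GATA2-GMP KO, 463 ± 284 CPM in GATA2-GMP WT, 0.162 ± 0.063 CPM in GMP KO and 0.0809 ± 0.105 CPM in GMP WT (SD, n = 3 each). Il6ra, its receptor, fell, with log2 changes of -7.77 in KO and -8.05 in WT, to 0.357 CPM in GATA2-GMP KO and 0.307 CPM in GATA2-GMP WT. Ctf1, cardiotrophin 1, had no read in GATA2-GMP against 83 counts over GMP KO and 76 over GMP WT, at least 15.4-fold lower in KO and 17.0-fold lower in WT by the floor of 3 counts. By genotype 0 of 4 was called in GATA2-GMP and 0 of 6 in GMP in edgeR, and 0 in DESeq2, with 1 higher in GATA2-GMP KO and 1 lower in GMP KO at an unadjusted p of 0.05.

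Immediate early genes, which answer handling and fresh stimulation of cells and include cytokine targets, moved with the stage. Their sum over 20 genes was 520 to 703 CPM in GATA2-GMP KO, 424 to 819 CPM in GATA2-GMP WT, 2528 to 4124 CPM in GMP KO and 1921 to 5258 CPM in GMP WT. Of 18 tested, 4 rose and 12 fell in KO, and 1 rose and 13 fell in WT. Among all genes 38.6% rose and 40.0% fell in KO, and 34.1% rose and 36.4% fell in WT. By genotype 0 immediate early genes were called in edgeR at either stage, with 2 higher and 1 lower in GATA2-GMP KO and none in GMP KO at an unadjusted p of 0.05. DESeq2 called 1, Atf3, higher in GATA2-GMP KO and 0 in GMP. The interferon response list, to which Socs1 also belongs, had a median log2 difference of 0.90 between genotypes in GATA2-GMP, against -0.0049 over all genes. There 0 of 16 was called in edgeR, with 5 higher and 1 lower in KO at an unadjusted p of 0.05, and DESeq2 called Usp18 higher and Socs1 lower. In the interaction edgeR called 0 genes of the receptor, JAK, SOCS and STAT family, STAT5 response, PIM substrate, interleukin 6, immediate early and interferon lists. At an unadjusted p of 0.05, 3 of 14 receptors were high and 2 low, 1 of 21 JAK list genes high and 3 low, and 1 of 10 family genes high. Of 16 STAT5 response genes 3 were high and 2 low, of 18 immediate early genes 1 was high, and of 17 interferon genes 5 were high and 1 low. Over all genes 5.96% were high and 8.95% low. Besides Socs1 and the JAK list genes, DESeq2, which called 6.41% of all genes, called Kit, Stat4, Myc, Atf3, Ifit1, Mx1 and Usp18 high and Il5ra, Il3ra and Ccnd3 low. The part of these lists in the levels of Cish and the SOCS genes was not tested.

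The genes whose pattern over the 12 libraries was most like that of Cish, by the root mean square difference of log2 CPM centred on each gene's mean, were Gapt (0.318), Tnfrsf18 (0.328), Akr1c13 (0.346), Cyp4f18 (0.348) and P2ry10 (0.362), among 12803 genes. Tnfrsf18 is the gene of the receptor GITR; it averaged 192 ± 60.8 CPM in GATA2-GMP KO, 167 ± 36.2 CPM in GATA2-GMP WT, 1.56 ± 0.362 CPM in GMP KO and 1.23 ± 0.146 CPM in GMP WT (SD, n = 3 each). Gapt was more abundant, at 1602 ± 339 CPM in GATA2-GMP KO, 2798 ± 570.4 CPM in GATA2-GMP WT, 17.1 ± 1.08 CPM in GMP KO and 15.5 ± 1.97 CPM in GMP WT (SD, n = 3 each). Socs2 ranked 17th on this measure at 0.449, Socs1 887th and Pim2 1133rd. When each gene was centred within each stage, so that the difference between stages dropped out, the most alike were E130218I03Rik, Mpeg1, Raver1-fdx1l, G6pdx and Sim2 at 0.110 to 0.157, of which E130218I03Rik, Raver1-fdx1l and Sim2 had no read in GATA2-GMP; among the 9 genes Pim1 came nearest, 1456th at 0.266.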

How the data were processed

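The authors deposited 1 table of raw read counts by gene symbol for each library, judging by whole numbers with unequal sums. Per the submitters' processing notes the build was mm9, and STAR 2.3.0, SAMtools 0.1.14, HTSeq and DESeq were used, in roles not given in the sources used here, as are strand setting and annotation. Rows for reads assigned to no gene, 55.8 to 66.5% of records, were set aside. Of 27 gene names that a spreadsheet had turned into dates in the GMP tables, 23 were restored and 4 left out, which left 23362 genes. No library repeated another.

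Genes were tested with edgeR 4.0.16 (R 4.3.3): filterByExpr, TMM scaling, robust quasi-likelihood fit and Benjamini-Hochberg adjustment over all genes tested, threshold 0.05. Genotype was fitted on the 6 libraries of each stage, its difference between stages as an interaction over 12, and stage on the 6 libraries of each genotype. SE is the log2 fold change over the square root of F. CPM per library used TMM over 12 libraries, so a CPM ratio can differ slightly from a fitted fold. Log2 CPM for the likeness to Cish had a prior count of 2. The filter, scaling, each library, the replicate block and DESeq2 1.42.0 were varied. Checks on simulated counts with known changes were run first. At 8219366 counts in the smallest library 1 CPM stood for 8.22 reads.

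Replicate numbers were checked by correlating libraries' deviations from their group means across genes. In GMP the same numbers gave 0.318, 0.249 and 0.192, each the highest for its library, and the numbers were taken to pair the libraries. The main GMP and interaction fits did not use this pairing, which entered only as the block alternative. In GATA2-GMP the same numbers gave -0.16, -0.31 and -0.49 and no pairing was assumed.

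The 9 genes and the 16 other lists were chosen with earlier results of these data known. Named besides the 9 were list genes past the threshold by genotype (at most 5 a list), the 3 with the largest stage change in each of 5 pathway lists, Xbp1, Gata2 and the 5 genes most like Cish. The stage changes of Jak2, Ptpn2, Csf2rb, Il5ra, Csf2ra and Il3ra were added after their values were seen. By genotype the marker lists gave Elane (log2 difference -1.18), Cd177 (1.38) and Fcer1a (1.49) in GMP KO, and Ear1 (-6.51) and Ear2 (-6.30), close paralogs, in GATA2-GMP KO and in the interaction. Spi1, Siglecf, Ly6g and Adgre1 were not found under these names.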

Additional observations from a re-analysis of the deposited data

Results flagged for a closer look

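In GATA2-GMP the share of Stat5a in the Stat5a and Stat5b counts was lower in every KO library than in every WT library. In GMP it was higher in every KO library than in every WT library. For levels of single genes, groups did not overlap with KO lower for 12.2% of genes in GATA2-GMP and with KO higher for 9.48% in GMP. The share of Stat5a was looked at after the values were seen. It averaged 35.7 ± 2.03% in GATA2-GMP KO and 45.5 ± 4.04% in GATA2-GMP WT, and 42.3 ± 1.35% in GMP KO and 40.4 ± 0.451% in GMP WT (SD, n = 3 each). KO minus WT was -9.77 percentage points in GATA2-GMP and 1.93 in GMP, a difference of -11.7 points between the stages, which was not tested. The separation in GMP rests on 40.9% in KO replicate 2 against 40.8% in WT replicate 3, inside the counting error of shares on 9101 and 4094 counts.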

How the results depend on the processing

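Stage differences of Cish, Socs1, Socs2, Socs3, Pim2, Osm, Stat5a and Stat5b kept their sign under all 10 alternatives; Pim1 turned to -0.52 in KO and -0.24 in WT on total counts. Without TMM the stage values of the 9 genes dropped by about as much as the median of all genes. Levels per length hinge on the transcript: with the shortest, Cish in GATA2-GMP WT was 634 CPM per kb.

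The number of the 9 genes called was 0 in each genotype comparison, where 3.17% of all genes were called in GMP, 0.376% in GATA2-GMP and 0.0859% in the interaction. In GMP it became 1 (Pim1) on total counts, without the filter, with DESeq2 (4.06% of all genes called) and with the replicate block, which also called more of all genes. The shares of all genes on total counts and without the filter are not given. Leaving out single libraries gave 0 to 1. In GATA2-GMP and in the interaction it became 1 (Socs1) with DESeq2, which called 4.86% and 6.41% of all genes there. Leaving out single libraries gave 0 to 1 in each. The 1 came without GATA2-GMP WT replicate 3, the left-out library that gave the most calls over all genes in both comparisons.

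Over all genes the GMP calls, 381, became 964 with the block, and 209 to 398 without single libraries (237 without GMP WT replicate 3, 209 without GMP KO replicate 3). The GATA2-GMP calls, 44, became 294 without the filter, 568 with DESeq2 and 3 with the block. Without single libraries they were 0 to 525: 8, 28 and 525 without GATA2-GMP WT replicates 1, 2 and 3, 20 without KO replicate 2, and 0 without KO replicate 1 or 3, where 1000 and 1444 genes had an unadjusted p under 0.05. The interaction calls, 11, became 17 with DESeq2 size factors, 40 without the filter, 821 with DESeq2, 0 with the block (1336 at an unadjusted p under 0.05), and 0 to 1179 without single libraries. Of these, 1179 came without GATA2-GMP WT replicate 3, 127 without WT replicate 2, 28 and 25 without KO replicates 3 and 2, 0 without KO replicate 1 (1687 at an unadjusted p under 0.05), and 1 to 2 without any GMP library. The cause was not tested. In GATA2-GMP the block joins replicate numbers for which no pairing was assumed.

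Signs turned for differences within their errors. Osm in GMP was -0.1485 to 0.2091 without single libraries. In GATA2-GMP, Osm was 0.0022 and 0.0023 with DESeq2 size factors and DESeq2, 0.1523 on total counts, and -0.2909 to 0.2674 without single libraries. Pim1 was 0.0594 on total counts and -0.2368 to 0.0541 without single libraries, Socs3 was 0.2071 with the block and -0.6858 to 0.2502 without single libraries, and Stat5b was -0.0524 to 0.5213 without single libraries. In the interaction, Osm was 0.0238 on total counts and -0.381 to 0.1761 without single libraries, and Stat5b was -0.0991 to 0.4656. On total counts the share of called genes higher in KO was 45.9% in GATA2-GMP, against 27.3% with TMM, and 36.2% in GMP, against 20.7% with TMM. Depth limits Socs2, Socs1 and Socs3 most, with 31, 92 and 130 counts over the 3 GMP KO libraries and 9, 48 and 55 over the 3 GMP WT libraries.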
